A study of Mus musculus with 22 samples.

Results

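The genes described here are 10 markers of liver endothelium: Stab1, Stab2, Lyve1, Clec4g, Fcgr2b, Kdr, Oit3, Gpr182, Vwf and Pecam1. They were picked by gene symbol as known markers, but with earlier results of these data known. All 10 had a value among the 24011 genes measured. Livers of 22 female mice of the C57BL/6J background, each 12 weeks old, were profiled with 1 MoGene 2.0 ST array per mouse. WT_chow stands for 5 wild-type mice on regular chow, WT_UDCA for 6 wild-type mice given 0.1% ursodeoxycholic acid (UDCA, a hydrophilic bile acid used as a drug in cholestatic disease) in chow, KO_chow for 5 Cyp2c70 knockout mice on regular chow, and KO_UDCA for 6 Cyp2c70 knockout mice on the UDCA chow. UDCA was fed for 7 weeks from an age of 5 weeks. Cyp2c70 is the mouse liver enzyme that makes muricholic acids, and the series asks what UDCA does to the biliary disease of mice that lack it. The sources used here do not say how the knockout was made or whether any mice were littermates.

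Sinusoidal endothelial cells line the liver's capillaries. They have pores and no organised basement membrane, and they clear waste molecules from the blood through scavenger receptors. In chronic liver injury they can lose these features and take on those of ordinary capillaries, a change known as capillarization, in which vascular proteins and a basement membrane appear. Stab1 and Stab2 encode the stabilins, large scavenger receptors of the sinusoid. Lyve1 encodes a hyaluronan receptor that lymphatic endothelium and some macrophages also make. Clec4g encodes a sinusoidal C-type lectin, and Fcgr2b the inhibitory Fc gamma receptor that also sits on B cells and macrophages. Kdr encodes VEGF receptor 2, Gpr182 an atypical chemokine receptor of sinusoidal and lymphatic endothelium, and Oit3 a zona pellucida domain protein used as a sinusoidal marker in liver. Vwf encodes von Willebrand factor and Pecam1 the adhesion molecule CD31. Both mark endothelium of vessels in general and platelets.

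Levels are log2 values of the deposited array intensity, where 1 unit is a doubling, and they are compared between groups and never between genes. The level of Cyp2c70 itself was 11.49 ± 0.14 (SD, n = 5) in WT_chow, 11.43 ± 0.14 (n = 6) in WT_UDCA, 10.65 ± 0.12 (n = 5) in KO_chow and 10.51 ± 0.17 (n = 6) in KO_UDCA, so every knockout array lay below every wild-type array. Which part of Cyp2c70 its probes cover was not analysed here. The median log2 level of an array lay between 4.85 and 4.96, and none of the 10 markers was below its array's median on any of the 22 arrays. KO_chow replicates 2 and 5 stood apart in earlier results of these data, with the highest means of 10 monocyte-derived macrophage markers (2.49 and 2.02 log2 above WT_chow, against 1.07 to 1.51 on the other KO_chow arrays). For the endothelial markers, WT_UDCA replicate 4 and KO_UDCA replicates 1 and 2 stood apart, as described further on. The tissue is whole liver, so fewer endothelial cells and less RNA of these genes per cell cannot be told apart.

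Promoter windows in RefSeq (build GRCm38.p6) were at hand for 5 of the markers, Stab1, Stab2, Clec4g, Fcgr2b and Kdr. They were searched on both strands, over the 250 bases before the transcription start, for 4 short motifs. The motif of GATA factors, which include the sinusoidal regulator Gata4, was spelled AGATAA. That of ETS factors, which are common regulators of endothelial genes, was spelled CAGGAAG or, in its other form, CCGGAAG. That of SOX factors was spelled ACAATG. The ETS spellings differ by 1 letter, so no stretch matches both. CAGGAAG was found in 1 of the 5 windows, Stab1, and in 10.8% of 32851 windows of the same length. ACAATG was found in 1 of the 5, Clec4g, and in 10.7% of all windows. AGATAA (9.99% of all windows) and CCGGAAG (6.91%) were found in 0 of the 5. Printed here are both windows with a match, and those of Fcgr2b and Kdr, because Clec4g, Fcgr2b and Kdr varied closely together between mice. All 4 genes lie on the minus strand, and the sequences read 5′ to 3′ along the gene. Each ends at the base before the transcription start on which its window is based. That start is the end of the listed gene span only for Fcgr2b (170976071). The listed spans of Stab1 (to 31168651) and Clec4g (to 3720695) reach into their windows. That of Kdr (to 75979072) reaches past its whole window. Capitals mark a motif match, which describes letters and not binding. The windows are chr14:31168642-31168891 (Stab1, match 117 bases before the start), chr8:3720652-3720901 (Clec4g, match 202 bases before the start), chr1:170976072-170976321 (Fcgr2b) and chr5:75978456-75978705 (Kdr).
Stab1: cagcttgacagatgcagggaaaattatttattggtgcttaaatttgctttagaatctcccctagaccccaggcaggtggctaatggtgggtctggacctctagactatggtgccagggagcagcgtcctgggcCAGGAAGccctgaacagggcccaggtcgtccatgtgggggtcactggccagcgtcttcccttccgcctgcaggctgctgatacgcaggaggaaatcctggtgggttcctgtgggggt
Clec4g: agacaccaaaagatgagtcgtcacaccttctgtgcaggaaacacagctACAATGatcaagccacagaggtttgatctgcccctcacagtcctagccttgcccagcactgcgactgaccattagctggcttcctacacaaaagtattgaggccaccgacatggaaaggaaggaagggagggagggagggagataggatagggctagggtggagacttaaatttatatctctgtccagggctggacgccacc
Fcgr2b: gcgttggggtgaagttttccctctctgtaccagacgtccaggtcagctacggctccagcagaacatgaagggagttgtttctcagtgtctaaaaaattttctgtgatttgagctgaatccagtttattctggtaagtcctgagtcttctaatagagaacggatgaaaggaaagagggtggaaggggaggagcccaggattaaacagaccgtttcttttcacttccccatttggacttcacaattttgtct
Kdr: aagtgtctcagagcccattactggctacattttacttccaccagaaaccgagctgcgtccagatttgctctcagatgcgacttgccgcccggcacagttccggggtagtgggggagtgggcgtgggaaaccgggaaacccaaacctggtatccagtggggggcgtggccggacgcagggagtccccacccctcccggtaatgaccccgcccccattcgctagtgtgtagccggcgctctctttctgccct

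KO_chow against WT_chow asks how the endothelial markers stood in the untreated knockout liver. Lyve1 was higher by 0.72 log2 (1.64-fold, SE 0.23, 95% interval 0.25 to 1.18, adjusted p = 0.03546) and Oit3 was lower by 0.51 log2 (1.43-fold, SE 0.17, interval of the change -0.87 to -0.16, adjusted p = 0.04952). The other 8 markers did not pass the test. Thus 2 of the 10 passed, 1 in each direction, where 13.7% of all genes passed (7.69% higher and 6.03% lower), so the count is near that background. The changes of the 10 were positive for 4 and negative for 6, with a median of -0.11, against -0.04 over all genes. The sign of Vwf turned under quantile normalization and without KO_chow replicate 3 (-0.02 in both), and that of Pecam1 without KO_chow replicates 2 and 5 (-0.04). Adjusted p-values are from limma with Benjamini-Hochberg adjustment over all 24011 genes, and a gene passed below 0.05.

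Lyve1, the hyaluronan receptor, measured 6.69, 7.13, 7.02, 7.25 and 7.34 in WT_chow replicates 1 to 5, and 7.37, 8.12, 7.85, 7.24 and 8.44 in KO_chow replicates 1 to 5. KO_chow replicates 2, 3 and 5 were clearly above every WT_chow mouse and replicate 1 was just above them, whereas replicate 4 lay within the WT_chow range, so the groups overlapped. Its SD was 0.50 in KO_chow and 0.25 in WT_chow. The 3 high mice included both that stood apart for macrophage genes. Without KO_chow replicates 2 and 5 the change of Lyve1 was 0.40 (adjusted p = 0.4129), and the call was also lost on leaving out WT_chow replicate 1 (adjusted p = 0.1001), 2 (0.05699) or 3 (0.0674) or KO_chow replicate 2 (0.1048), 3 (0.06522) or 5 (0.126).

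Oit3, the zona pellucida domain protein of sinusoidal cells, measured 7.62, 7.90, 7.92, 8.21 and 7.80 in WT_chow and 7.46, 7.42, 7.20, 7.68 and 7.12 in KO_chow. The groups overlapped through 1 pair, KO_chow replicate 4, the highest of its group, and WT_chow replicate 1, the lowest of its own. This call lay at the edge of the threshold and was lost under 12 of 19 alternatives. They include leaving out any 1 of WT_chow replicates 2, 3, 4 and 5 or KO_chow replicates 1, 2, 3 and 5, with adjusted p between 0.05635 and 0.1337, and KO_chow replicates 2 and 5 together (change -0.44, adjusted p = 0.2732).

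Kdr, VEGF receptor 2, had a change of -0.43 (SE 0.16, adjusted p = 0.0749) that did not pass. It measured 8.41, 8.59, 8.68, 8.93 and 8.52 in WT_chow and 8.16, 8.28, 8.16, 8.55 and 7.82 in KO_chow. KO_chow replicate 4 was again the high mouse of its group, above WT_chow replicates 1 and 5, and the other 4 KO_chow mice lay below every WT_chow mouse. Without KO_chow replicate 4 the change was -0.52 and passed (adjusted p = 0.02945). It also passed among genes above the median level, where fewer genes were tested (-0.43, adjusted p = 0.04065).

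The stabilins, the lectin and the Fc receptor did not pass. Stab2 was 8.28 ± 0.13 (SD, n = 5) in WT_chow and 8.08 ± 0.10 (n = 5) in KO_chow, a change of -0.20 (SE 0.09, adjusted p = 0.1468). Stab1 was 7.16 ± 0.08 and 7.05 ± 0.08 (adjusted p = 0.5633), and Clec4g was 8.80 ± 0.18 and 8.52 ± 0.08 (change -0.28, SE 0.17, adjusted p = 0.3177). For Clec4g the 5 KO_chow mice lay within 8.43 to 8.65 and the WT_chow mice within 8.54 to 9.00. Fcgr2b, the inhibitory Fc receptor, was 8.70 ± 0.14 in WT_chow and 8.79 ± 0.15 in KO_chow (adjusted p = 0.7556). Gpr182, the atypical chemokine receptor, was 7.35 ± 0.08 and 7.24 ± 0.15 (adjusted p = 0.566). The general vascular markers did not separate the groups either, with Vwf at 5.70 ± 0.13 and 5.73 ± 0.12 (adjusted p = 0.8918) and Pecam1 at 6.88 ± 0.07 and 6.94 ± 0.15 (adjusted p = 0.8008). The intervals of the change bounded Vwf between -0.18 and 0.24 and Pecam1 between -0.16 and 0.27. The groups overlapped for all 10 markers. Over all genes 9.43% had no overlap between these groups, so the markers lay near that background.

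**Figure D1:**
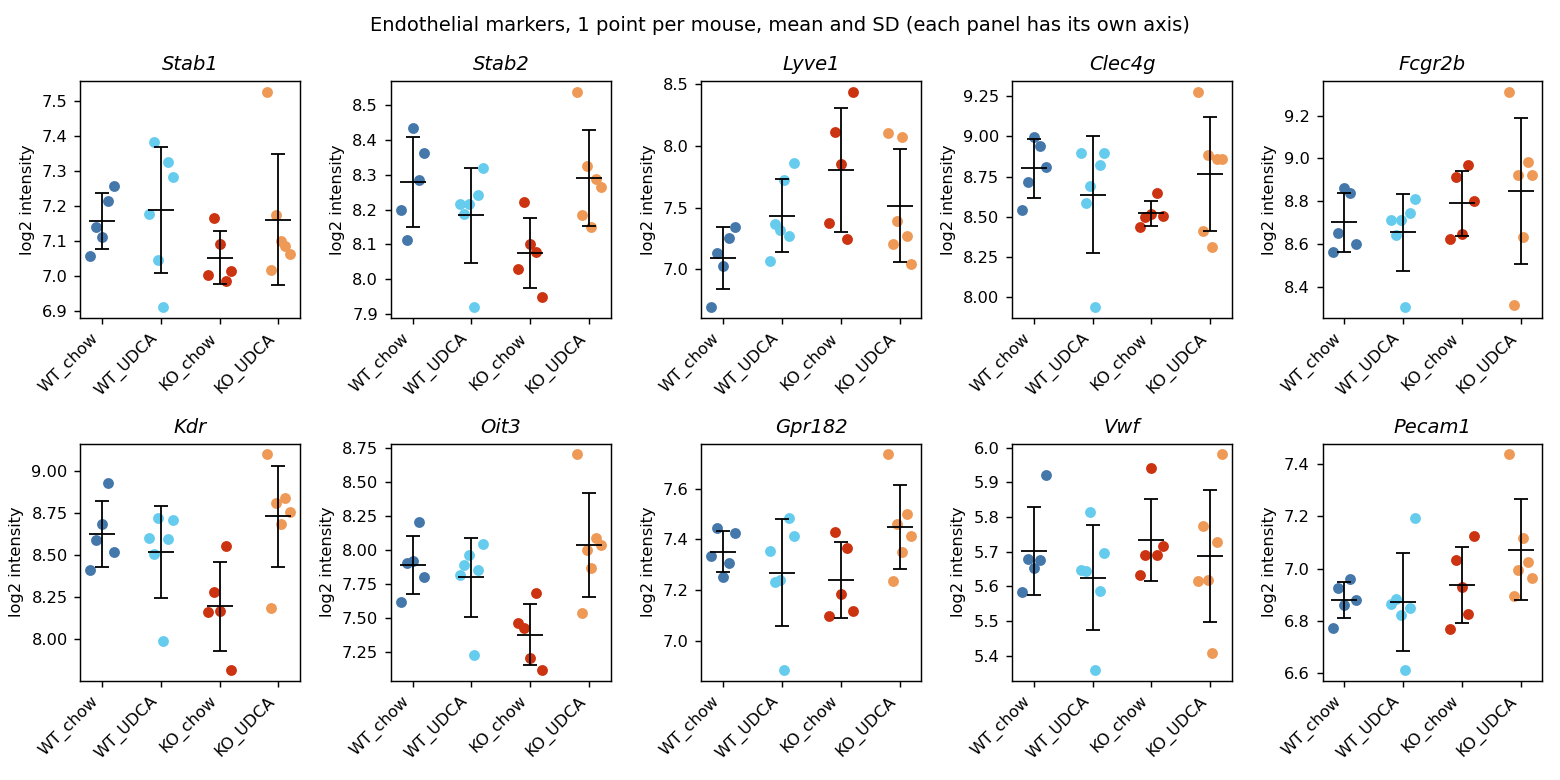
Log2 level (vertical axis, a scale of its own in each panel) of the 10 endothelial markers in the 4 groups, with 1 point per mouse and the mean and SD as bars. In KO_chow the points of Lyve1 spread from 7.24 to 8.44, and those of Oit3 and Kdr lie mostly below the points of WT_chow.

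KO_UDCA against KO_chow asks what the UDCA diet did in the knockout. Kdr was higher by 0.54 log2 (1.45-fold, SE 0.15, 95% interval 0.22 to 0.85, limma adjusted p = 0.02326) and Oit3 was higher by 0.66 log2 (1.58-fold, SE 0.17, interval 0.32 to 1.00, limma adjusted p = 0.01038). These 2 of the 10 markers passed, both higher on UDCA, where 11.2% of all genes passed (5.03% higher and 6.22% lower). The changes were positive for 8 of the 10, with a median of 0.17, against 0.03 over all genes. The sign of Fcgr2b turned without KO_UDCA replicate 1 (-0.04), that of Lyve1 without KO_chow replicates 2 and 5 (0.03), and that of Vwf without KO_chow replicate 3 or KO_UDCA replicate 4 (0.01 at most). This comparison and the one before share the KO_chow mice, so a high or low KO_chow value moves both.

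In KO_UDCA, Oit3 ran from 7.54 (replicate 2) to 8.70 (replicate 1) with a median of 8.02. All KO_UDCA mice but replicate 2 were above every KO_chow mouse, and replicate 2 lay within the KO_chow range. Oit3 lost the call only without KO_chow replicates 2 and 5 together, with a change of 0.59 (adjusted p = 0.1239), among the 20 alternatives run on it.

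Kdr ran from 8.18 (replicate 2) to 9.10 (replicate 1) in KO_UDCA with a median of 8.79, and replicate 2 was again the only mouse among the KO_chow values. Without KO_UDCA replicate 1 its change was 0.46 (adjusted p = 0.0576), and without KO_chow replicate 5 it was 0.44 (adjusted p = 0.09185). Without KO_chow replicates 2 and 5 together it was 0.44 (adjusted p = 0.2115).

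Lyve1 did not pass in this comparison (change -0.29, SE 0.22, interval -0.74 to 0.16, adjusted p = 0.4636). In KO_UDCA it ran from 7.04 to 8.10 with a median of 7.33, and the highest were replicates 1 (8.10) and 4 (8.07). The interval thus reaches from a drop of about the size of its rise in KO_chow to a small rise. Stab2 was 8.29 ± 0.14 (SD, n = 6) in KO_UDCA (change 0.22, SE 0.09, adjusted p = 0.1125) and Gpr182 was 7.45 ± 0.17 (change 0.21, SE 0.10, adjusted p = 0.2111). Clec4g was 8.77 ± 0.35 in KO_UDCA (change 0.25, adjusted p = 0.3847), with a wider spread than the 0.08 of KO_chow. Stab1 (7.16 ± 0.19), Fcgr2b (8.85 ± 0.34), Vwf (5.69 ± 0.19) and Pecam1 (7.07 ± 0.19) had changes between -0.05 and 0.14 and adjusted p between 0.4591 and 0.851. The groups overlapped for all 10. Over all genes 5.89% had no overlap, so the markers lay near that background here too.

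**Figure D2:**
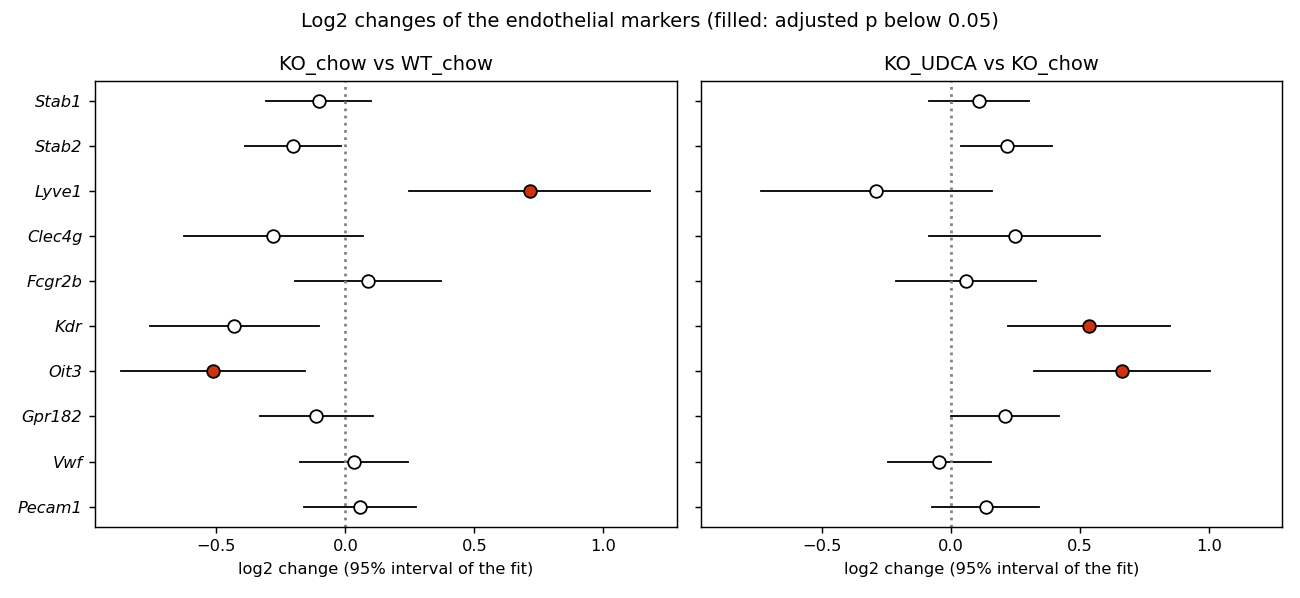
Log2 change (horizontal axis) of the 10 markers in KO_chow vs WT_chow (left) and KO_UDCA vs KO_chow (right), with points for the change and lines for its 95% interval, and filled points where the limma adjusted p is below 0.05. Lyve1 (0.72) and Oit3 (-0.51) are filled on the left, and Kdr (0.54) and Oit3 (0.66) on the right, where both panels share the KO_chow mice.

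The UDCA diet in wild-type mice moved none of the markers past the threshold. In WT_UDCA against WT_chow 0 of the 10 passed, where 0% of all genes passed in limma, and 0 of the 10 had an unadjusted p below 0.05 (1338 of all genes did). The largest change was that of Lyve1, 0.35 (SE 0.22, interval -0.10 to 0.79). Lyve1 ran from 7.07 to 7.86 in WT_UDCA, with a median of 7.34. Oit3 was 7.80 ± 0.29 (SD, n = 6), Kdr 8.52 ± 0.27, Clec4g 8.64 ± 0.36, Fcgr2b 8.66 ± 0.18 and Stab2 8.18 ± 0.14 in WT_UDCA, with intervals of the change that all held 0. For each of these 5 genes the lowest WT_UDCA mouse was replicate 4. Stab1 (7.19 ± 0.18), Gpr182 (7.27 ± 0.21), Vwf (5.62 ± 0.15) and Pecam1 (6.87 ± 0.19) had changes between -0.08 and 0.03.

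Between the genotypes on UDCA, KO_UDCA against WT_UDCA, 0 of the 10 markers passed in limma, where 0.0167% of all genes passed. Changes were positive for 9 of the 10, with a median of 0.15, against -0.01 over all genes, and Stab1 (-0.03) was the exception. Most of the markers varied together from mouse to mouse, as described further on. Their signs are thus not independent, in this or any other comparison. Signs turned for Lyve1 without KO_UDCA replicate 1 (-0.04) or 4 (-0.03), for Clec4g without WT_UDCA replicate 4 (-0.01), and for Stab1 without WT_UDCA replicate 2 or 5 or KO_UDCA replicate 2 (0.01 at most). Pecam1 alone had an unadjusted p below 0.05 (change 0.20, SE 0.10, adjusted p = 0.908), as did 1308 of all genes. Against WT_chow, KO_UDCA also had 0 of 10 markers past the threshold in limma, where 0.025% of all genes passed, and 0 of 10 at an unadjusted p below 0.05 (1349 of all genes). The interval of this change ran from -0.19 to 0.49 for Oit3, from -0.21 to 0.42 for Kdr and from -0.02 to 0.87 for Lyve1.

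The genotype by diet interaction is the UDCA change in knockouts minus that in wild types. It passed for 0 of the 10 markers in limma, where 2.67% of all genes passed (0.6% higher and 2.07% lower). Oit3 had the largest value, 0.75 (SE 0.23, adjusted p = 0.08617), followed by Kdr with 0.64 (SE 0.21, adjusted p = 0.1151). Stab2 (0.31, SE 0.12, adjusted p = 0.1837) and Lyve1 (-0.64, SE 0.31, adjusted p = 0.3048) also had an unadjusted p below 0.05, which made 4 of the 10 markers and 3906 of all genes. Oit3 and Kdr passed without KO_chow replicate 4 (adjusted p = 0.04467 and 0.04821) or without KO_UDCA replicate 2 (0.04758 and 0.04735).

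Ordered by mean level, Oit3 and Kdr followed the same order, KO_chow lowest, then WT_UDCA, then WT_chow, then KO_UDCA. KO_UDCA against KO_chow passed for both, and KO_chow against WT_chow also for Oit3, while no comparison among the last 3 groups passed. KO_chow and WT_UDCA, neighbours in this order, differ in genotype and diet and were not compared. Lyve1 was lowest in WT_chow, followed by WT_UDCA, KO_UDCA and KO_chow, and only the comparison of the outer groups passed.

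Other genes of the same cells were read from lists of known markers. Of 19 measured further sinusoidal genes, 2 were lower and 0 higher in KO_chow than in WT_chow, with a median change of -0.16, where 13.7% of all genes were called and 6.03% were called lower. The called number was 4 under quantile normalization or among genes above the median level, and 1 when WT_chow replicate 4, WT_chow replicate 5, KO_chow replicate 2 or KO_chow replicate 5 was left out. Mrc1, the mannose receptor that sinusoidal endothelium shares with Kupffer cells, fell by 0.47 (SE 0.12, limma adjusted p = 0.007687). Ehd3, an endocytic recycling protein of these cells, fell by 0.78 (SE 0.23, limma adjusted p = 0.02729). In KO_UDCA against KO_chow 3 of the 19 were higher and 0 lower, with a median of 0.13, where 5.03% of all genes were higher. Without KO_chow replicate 5, 1 of the 19 was called. Mrc1 was higher by 0.51 (SE 0.11, limma adjusted p = 0.003921), Cyp4b1, a cytochrome P450, by 0.57 (adjusted p = 0.01478), and Ehd3 by 0.76 (adjusted p = 0.02897). None of these 5 calls held without KO_chow replicates 2 and 5, where adjusted p was 0.09455 for Mrc1 and 0.2727 for Ehd3 in the first comparison and 0.07029, 0.2131 and 0.2976 for Mrc1, Cyp4b1 and Ehd3 in the second. Ehd3 was also lost without KO_chow replicate 2, 3 or 5 in either comparison (adjusted p between 0.0533 and 0.09557), without WT_chow replicate 4 (0.06169) or 5 (0.06534) in the first and without KO_UDCA replicate 1 (0.06684) in the second, and Cyp4b1 without KO_chow replicate 5 (0.05462).

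Pan-endothelial genes showed few calls. Of 20 measured, 1 was higher in KO_chow than in WT_chow and 0 were lower (median -0.11), where 13.7% of all genes were called. In KO_UDCA against KO_chow 2 of the 20 were higher and 1 lower (median 0.13), where 11.2% of all genes were called. The number called in the first comparison depended on the setting, with 4 under quantile normalization, 3 with log2 of intensity plus 16, among genes above the median level, with the trended prior or without WT_chow replicate 2 or KO_chow replicate 3, and 2 without WT_chow replicate 3 or KO_chow replicate 4 or 5. Robo4 then passed as lower under 6 of 19 alternatives (changes between -0.35 and -0.24 in these) and Ptprb under 1. Ecscr, an endothelial surface protein, was the exception in both, higher by 0.59 in KO_chow (SE 0.13, limma adjusted p = 0.00267) and lower by 0.55 on UDCA (SE 0.12, limma adjusted p = 0.004091). Robo4, a guidance receptor of endothelium, was higher on UDCA by 0.42 (SE 0.10, adjusted p = 0.007338), as was Ptprb, the endothelial phosphatase VE-PTP, by 0.41 (SE 0.11, adjusted p = 0.01649). All 4 calls were lost on dropping KO_chow replicates 2 and 5 together, with an adjusted p of 0.07256 and 0.1196 for Ecscr, 0.1323 for Robo4 and 0.2082 for Ptprb, and Ptprb was also lost without KO_chow replicate 5 alone (0.06378).

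A list of vascular and capillary type genes, with genes of basement membrane and leukocyte adhesion, held more calls. Of 18 measured, 8 were higher and 0 lower in KO_chow than in WT_chow, with a median of 0.34, where 7.69% of all genes were higher. Without KO_chow replicates 2 and 5, 7 of the 18 were called. Cd34, a sialomucin of capillary endothelium, measured 4.97 ± 0.08 (SD, n = 5) in WT_chow, 5.06 ± 0.13 (n = 6) in WT_UDCA, 6.13 ± 0.14 (n = 5) in KO_chow and 5.28 ± 0.29 (n = 6) in KO_UDCA. It rose by 1.16 in KO_chow (SE 0.12, limma adjusted p = 4.086e-07), and no mouse of KO_chow overlapped WT_chow. The tetraspanin Cd9 rose by 1.53 (SE 0.17, limma adjusted p = 1.352e-06) and Col4a1, a chain of basement membrane collagen, by 1.11 (SE 0.16, limma adjusted p = 3.671e-05).

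In KO_UDCA against KO_chow, 9 of the 18 were lower and 0 higher, with a median of -0.23, where 6.22% of all genes were lower. Without KO_chow replicates 2 and 5, 5 of the 18 were called. Cd34 fell by 0.86 (SE 0.11, limma adjusted p = 1.905e-05), Cd9 fell by 1.04 (SE 0.16, limma adjusted p = 0.0001608) and Col4a2 fell by 0.89 (SE 0.14, limma adjusted p = 0.0001721). The interaction passed for 6 of the 18, all lower, where it passed as lower for 2.07% of all genes. Among the 6 were Cd34 (-0.95, SE 0.16, limma adjusted p = 0.001693) and Col4a2 (-1.07, SE 0.20, limma adjusted p = 0.004167). Plvap, the protein of capillary pore diaphragms, was named after its value was seen. It had a change of -0.03 in KO_chow (interval -0.36 to 0.31).

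Several genes of this vascular list are also made by other cells of an injured liver, and Cd9 stands on the macrophage list as well. In KO_chow against WT_chow, where 7.69% of all genes were higher, so were 10 of 10 measured monocyte-derived macrophage markers (median 1.44) and 8 of 8 cholangiocyte markers (median 1.44). Of 12 stellate cell markers 6 were higher and 1 was lower (median 0.33). In KO_UDCA against KO_chow 10 of 10, 8 of 8 and 4 of 12 were lower, where 6.22% of all genes were lower. In the same comparison 2 of the 12 stellate cell markers were higher. The mean log2 level of the macrophage list ran from 5.22 to 5.47 in WT_chow, 6.42 to 7.83 in KO_chow and 5.42 to 5.59 in KO_UDCA. That of the cholangiocyte list ran from 4.73 to 4.92, 5.99 to 6.76 and 4.88 to 5.39, and that of the stellate cell list from 6.93 to 7.17, 7.35 to 7.47 and 6.97 to 7.28. The part of these cells in the changes of Lyve1 and of the vascular list was not tested.

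Markers of other cells that share some of the 10 genes were read in the same way. Kupffer cell markers had a larger median change in KO_chow than the 10 markers (-0.11), in the same direction. Platelet and B cell markers had few or no calls. The median change of the B cell markers was -0.17 in KO_chow against WT_chow, also larger than that of the 10 markers. It was 0.15 in KO_UDCA against KO_chow. Platelet markers had medians of -0.01 in both comparisons. The part of B cells in the changes of the 10 markers was not tested. Of 10 Kupffer cell markers, 5 were lower and 1 higher in KO_chow than in WT_chow (median -0.48), where 6.03% of all genes were lower. In KO_UDCA against KO_chow 5 of the 10 were higher and 1 lower (median 0.43), where 5.03% of all genes were higher. Clec4f, which defines Kupffer cells, measured 8.42 ± 0.11 (SD, n = 5) in WT_chow, 7.79 ± 0.16 (n = 5) in KO_chow and 8.42 ± 0.14 (n = 6) in KO_UDCA, and Timd4 measured 7.19 ± 0.16, 6.34 ± 0.20 and 7.10 ± 0.35. The Kupffer list thus moved the same way as Oit3, Kdr and Mrc1, and its part in their changes was not tested. The defining stellate gene Lrat was 7.89 ± 0.15 in WT_chow and 8.06 ± 0.29 in KO_chow. Platelet markers had 1 call (higher) of 10 in KO_chow against WT_chow, B cell markers 0 of 7 and hepatocyte markers 0 of 10, and in KO_UDCA against KO_chow each had 0. Over all genes 13.7% were called in the first of these comparisons and 11.2% in the second. The platelet gene Itga2b had group means between 4.61 and 4.90, Pf4 between 3.86 and 4.23, and the B cell gene Cd79a between 4.43 and 4.80, all near or below the array medians. No measured defining gene was at 0.

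**Figure D3:**
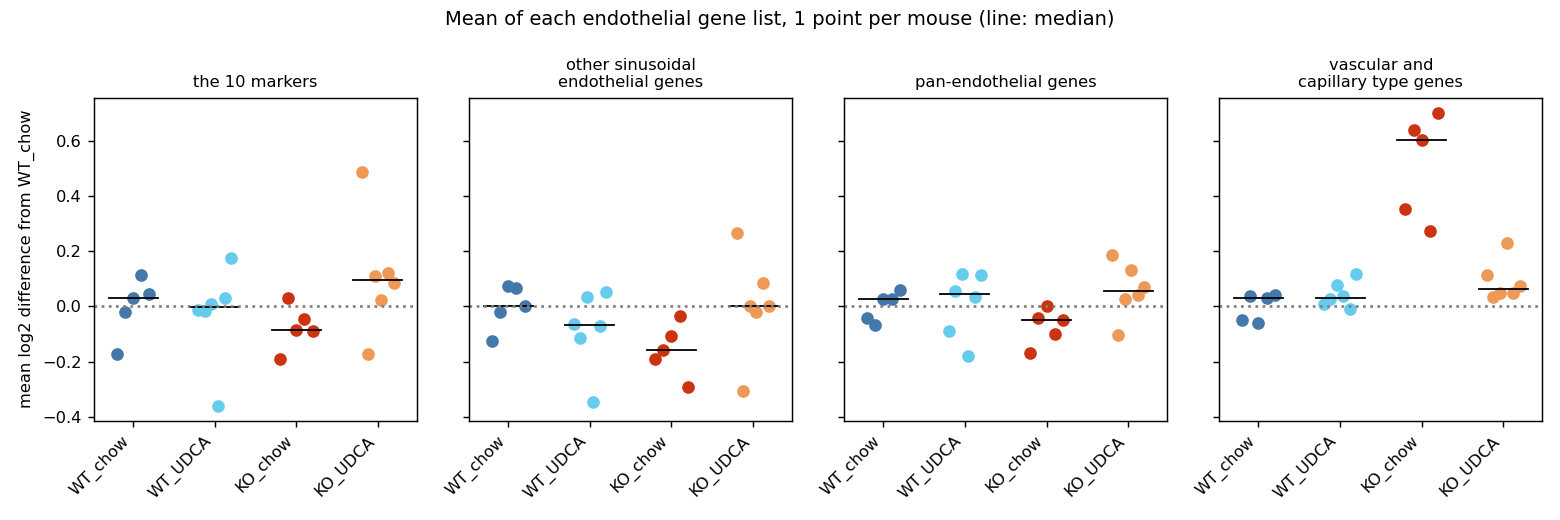
Mean log2 difference from WT_chow (vertical axis) over the genes of 4 endothelial lists, with 1 point per mouse and a line at the group median. The vascular and capillary type list lies between 0.27 and 0.70 in KO_chow and between 0.04 and 0.23 in KO_UDCA, whereas the KO_chow points of the 10 markers lie between -0.19 and 0.03.

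Lymphatic endothelium, which shares Lyve1, was read from 6 measured genes. In KO_chow against WT_chow the 1 called gene was higher, Itga9, an integrin chain (0.34, SE 0.09, limma adjusted p = 0.009384, or 0.1438 without KO_chow replicates 2 and 5), and 2 genes were called without KO_chow replicate 2 or 3, with log2 of intensity plus 16, quantile normalization or array weights, and among genes above the median level. In KO_UDCA against KO_chow 0 passed, or 1 without KO_chow replicate 3. Of all genes, 13.7% passed in the first of these comparisons and 11.2% in the second. Prox1, which hepatocytes also make, measured 9.28 ± 0.08 (SD, n = 5) in WT_chow and 9.05 ± 0.48 (n = 5) in KO_chow, and Pdpn 5.23 ± 0.08 and 5.28 ± 0.20.

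Of 23 measured growth factors, co-receptors and angiocrine ligands of endothelium, 5 were higher and 2 lower in KO_chow than in WT_chow (median 0.03). Over all genes 13.7% were called there. In KO_UDCA against KO_chow 1 of the 23 was higher and 4 were lower (median -0.06), where 11.2% of all genes were called. The 7 calls of the first comparison dropped to 4 without WT_chow replicate 1 or KO_chow replicate 2 or 5, and the 5 of the second to 3 without KO_UDCA replicate 1 or 2, with arrays centred on their medians or with only the compared groups fitted. Without KO_chow replicates 2 and 5 together, 4 were called in the first comparison and 3 in the second. The least firm were Acvrl1 and Wnt2, each lost under 10 of 19 alternatives in the first, and Vegfd, lost under 14 of 19 in the second. Acvrl1 and Vegfd were named after their values were seen. Hgf, the hepatocyte growth factor that endothelial and stellate cells secrete, measured 7.87 ± 0.04 (SD, n = 5) in WT_chow and 8.60 ± 0.28 (n = 5) in KO_chow. It rose by 0.73 (SE 0.11, limma adjusted p = 0.0001228) and fell by 0.80 on UDCA (SE 0.11, limma adjusted p = 3.311e-05). Jag1, a Notch ligand of vessels and of bile duct surroundings, rose by 0.74 (SE 0.13, limma adjusted p = 0.0003918) and fell by 0.48 on UDCA (SE 0.12, limma adjusted p = 0.01206, or 0.1406 without KO_chow replicates 2 and 5). Angptl6, an angiopoietin-like factor of liver, went the other way, falling by 0.72 (SE 0.09, limma adjusted p = 8.877e-06) and rising by 0.62 on UDCA (SE 0.09, limma adjusted p = 5.382e-05). The interaction passed for Angptl6 (0.70, SE 0.12, limma adjusted p = 0.002842) and Hgf (-0.65, SE 0.15, limma adjusted p = 0.02394). Wnt2, a Wnt ligand of sinusoidal cells, was named after its value was seen. It was 5.37 ± 0.03 in WT_chow and 5.00 ± 0.10 in KO_chow, with no overlap (change -0.37, SE 0.12, limma adjusted p = 0.03593), and lost the call under 10 of 19 alternatives, which are the omission of any 1 array of either group except KO_chow replicate 4 and of KO_chow replicates 2 and 5 together (adjusted p between 0.05332 and 0.1446).

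Within the groups, most of the markers varied together from mouse to mouse. Each gene was centred on its group means, so that the groups do not enter, and the deviations of all 22 arrays were compared in the 45 pairs of markers. Pearson's r ran from -0.27 to 0.93 with a median of 0.62, and 28 of the 45 pairs passed a two-sided permutation test (100000 resamples) with Benjamini-Hochberg adjustment over the 45, as did 19 by Spearman's rho. Centring makes the deviations of a group sum to 0, which the permutation does not account for. It also exchanges arrays between groups of unlike spread, such as Lyve1 with an SD of 0.50 in KO_chow and 0.25 in WT_chow. Both limits hold for all permutation p-values given here, including those of Lyve1 with the gene lists. The markers other than Lyve1 and Vwf made up most of these. Among the 28 pairs without Lyve1 and Vwf, r ran from 0.45 to 0.93 (median 0.73), and 27 passed by r and 18 by rho. The pairs with Lyve1 or Vwf numbered 17, had a median r of 0.12, and passed in 1 case.

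Kdr and Oit3 were the closest pair (r = 0.93, rho = 0.87, permutation adjusted p = 7.5e-05 and 0.00015). Leaving out KO_UDCA replicate 2 and WT_UDCA replicate 4, the arrays farthest from the median of Kdr, gave r = 0.88. Clec4g and Fcgr2b followed (r = 0.87, rho = 0.86, permutation adjusted p = 7.5e-05 and 0.00015), with r = 0.89 without KO_UDCA replicate 4 and WT_UDCA replicate 4. The raw p of both pairs, 1e-05, is the smallest that the permutations can give. Correlated with the mean of the other markers, Clec4g had r = 0.87, Fcgr2b and Oit3 0.85, Stab2 0.82, Gpr182 0.80, Stab1 0.78, Kdr 0.77 and Pecam1 0.74, against 0.17 for Vwf and 0.14 for Lyve1. Each array gives all 10 values, so these genes share array quality and tissue sampling.

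A few mice carried much of this. In WT_UDCA replicate 4, Clec4g was 7.94 and the other WT_UDCA mice were at 8.58 or above. Oit3 was 7.23 there against 7.82 or above, and Kdr 7.99 against 8.50 or above, whereas Lyve1 (7.73) was the second highest of its group. KO_UDCA replicate 1 was the opposite, with the highest value of its group in 9 of the 10 markers, Vwf excepted, and KO_UDCA replicate 2 had the lowest value in 6 of the 10. Without these 3 arrays the median r of the 28 pairs was 0.41 and that of all 45 pairs 0.22 over 19 arrays.

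The list means of those mice are given here against WT_chow. In WT_UDCA replicate 4 the mean difference was -0.36 for the 10 markers, -0.35 for the other sinusoidal genes, -0.27 for Kupffer cell markers, 0.01 for hepatocyte markers and 0.04 for the vascular list. In KO_UDCA replicate 1 it was 0.49 for the 10 markers, 0.26 for the other sinusoidal genes, 0.45 for Kupffer cell markers and 0.04 for hepatocyte markers. In KO_UDCA replicate 2 it was -0.17 for the 10 markers, -0.31 for the other sinusoidal genes, 0.22 for Kupffer cell markers and 0.10 for hepatocyte markers. The Kupffer list thus lay on the same side as the sinusoidal genes in the first 2 of these mice and on the other side in the third.

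**Figure D4:**
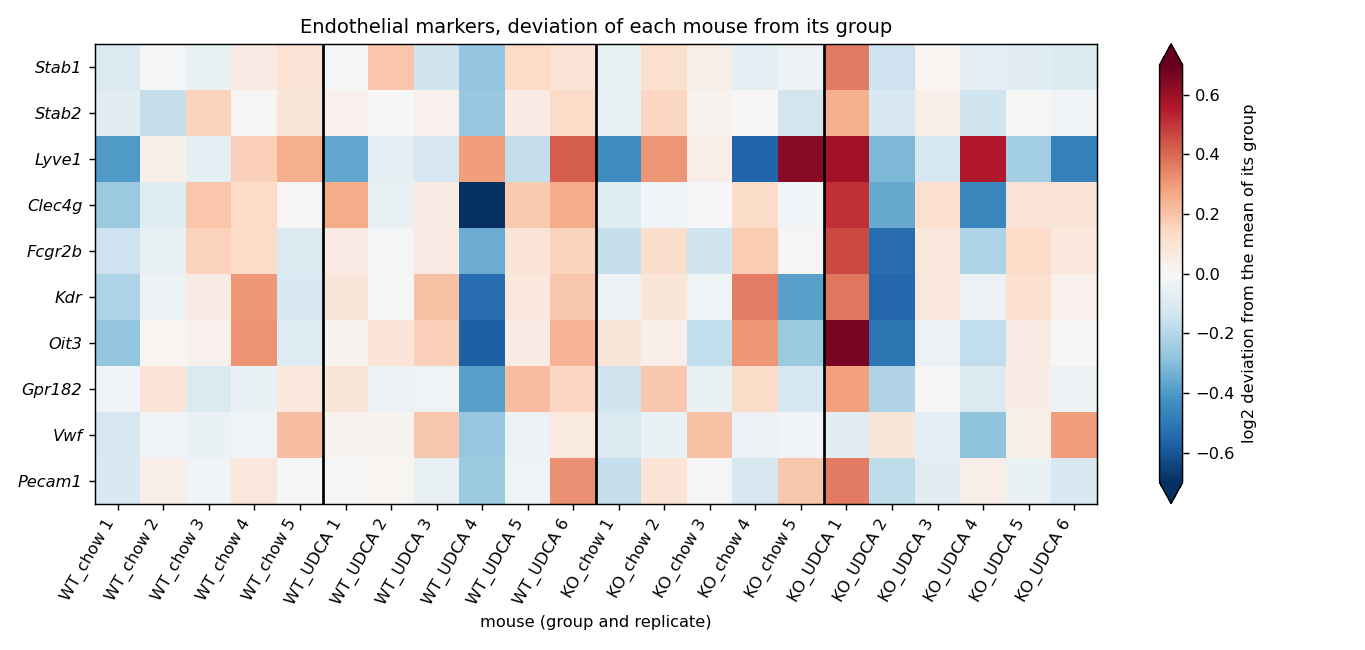
Deviation of each mouse from its group mean in log2 units (colour, red above and blue below) for the 10 markers (rows) and 22 mice (columns, parted by group). WT_UDCA replicate 4 is blue for every marker except Lyve1, and KO_UDCA replicate 1 is red for every marker except Vwf, while the row of Lyve1 follows a pattern of its own in KO_chow.

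As a description over the 22 arrays, the mean of the 10 scaled markers had r = 0.88 (rho = 0.82) with the other sinusoidal genes, or 0.80 without WT_UDCA replicate 4 and KO_UDCA replicate 1. It had r = 0.76 (rho = 0.63) with the pan-endothelial genes, 0.74 (rho = 0.57) with the growth factors and angiocrine ligands, 0.15 (rho = 0.15) with the vascular list and 0.08 (rho = 0.05) with hepatocyte markers. With Kupffer cell markers r was 0.53 (rho = 0.34) and dropped to 0.07 without those 2 arrays, on which it rested. The 6 genes outside the 10 that were most like their mean over the 22 arrays were Adgrf5 (r = 0.90), Aqp1 (0.89), Kit (0.88), Ehd3 (0.86), Eng (0.86) and Ntng2 (0.85), and 885 of 24001 outside genes had r above 0.5. Eng encodes endoglin, a TGF-beta co-receptor of endothelium, Aqp1 a water channel and Kit the stem cell factor receptor. Of these 6, only Ehd3 passed in KO_chow against WT_chow or in KO_UDCA against KO_chow.

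Lyve1 varied instead with the mean of the vascular list, though not with each of its genes. Its deviations had r = 0.81 and rho = 0.81 with the mean deviation of the 18 vascular and capillary type genes over 22 arrays (permutation p = 1e-05, the smallest possible, and 2e-05, adjusted over 12 lists to 0.00012 and 0.00024). Without KO_UDCA replicate 1 and KO_chow replicate 5 r was 0.82, and over the 17 arrays outside KO_chow it was 0.76. The list was compared with Lyve1 after the values were seen. Among the single genes of that list, Vcam1, a leukocyte adhesion molecule, had the highest r with Lyve1 (0.88), followed by Col4a1 (0.66) and Col4a2 (0.63), and Cd34 had 0.34. The lowest were Apln (0.06), Edn1 (0.02), Ephb4 (-0.02), Rspo3 (-0.06), Vwa1 (-0.12) and Gja5 (-0.25). The list mean is of unscaled deviations, so genes that vary widely, such as Vcam1, weigh more in it.

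Lyve1 had a lower r with each of the other lists. With the pan-endothelial genes r was 0.46 (rho = 0.54, permutation adjusted p = 0.0794 and 0.031, past the threshold by rho alone). It had r = 0.56 with stellate cell markers (rho = 0.57, permutation adjusted p = 0.0248 and 0.031; 0.54 without KO_chow) and r = 0.54 with macrophage markers (rho = 0.51, permutation adjusted p = 0.0248 and 0.0415; 0.28 without KO_chow). With growth factors and angiocrine ligands r was 0.53 (rho = 0.55, permutation adjusted p = 0.0357 and 0.031) and 0.33 without KO_UDCA replicate 1 and KO_chow replicate 5. With the other sinusoidal genes it was 0.10 (rho = 0.07, permutation adjusted p = 0.78 and 0.826), and with lymphatic genes 0.08 (rho = 0.11, permutation adjusted p = 0.78 and 0.737).

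**Figure D5:**
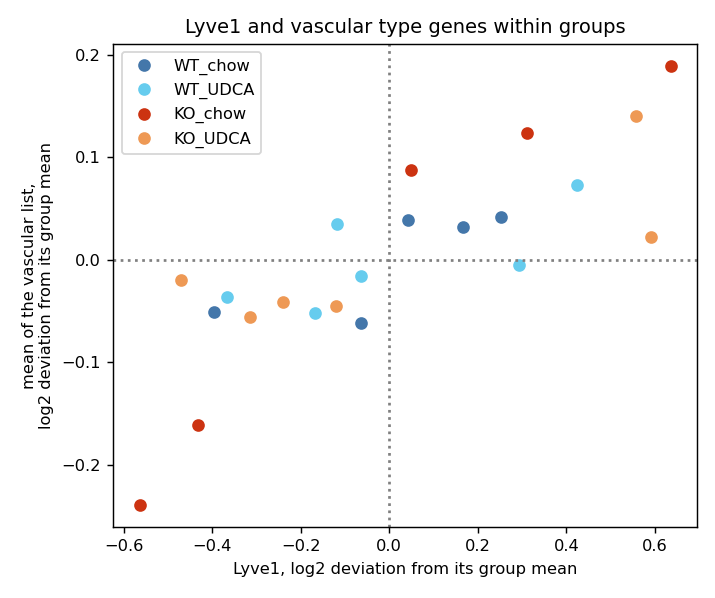
Deviation of Lyve1 from its group mean (horizontal axis, log2) against the mean deviation of the vascular and capillary type list (vertical axis, log2), with 1 point per mouse coloured by group. The points rise together (r = 0.81 over 22 arrays), with the widest spread in KO_chow and r = 0.76 over the 17 arrays of the other groups.

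The genes nearest to Lyve1 over all genes, listed after their values were seen, were Vcam1 (r = 0.88), the kinase gene Prkch (0.87), the intermediate filament gene Vim (0.86), Tm6sf1 (0.83) and the oncostatin M receptor gene Osmr (0.81). Sema6d, Robo2 and C920009B18Rik had the same rounded r as Osmr. Vcam1 measured 7.12 ± 0.31 (SD, n = 5) in WT_chow, 7.37 ± 0.31 (n = 6) in WT_UDCA, 8.32 ± 0.73 (n = 5) in KO_chow and 7.41 ± 0.26 (n = 6) in KO_UDCA. It rose by 1.20 in KO_chow (SE 0.25, limma adjusted p = 0.001835) and fell by 0.92 on UDCA (SE 0.24, limma adjusted p = 0.0131). Its group order, with KO_chow highest, was that of Lyve1, for which the second of these changes did not pass.

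Vwf varied with none of the other markers. It ran from 5.36 to 5.98 over the 22 mice, and its r with the other 9 lay between -0.27 (Lyve1) and 0.41 (Clec4g), none of which passed. Lyve1 and Pecam1 were the only pair with Lyve1 that passed (r = 0.69, rho = 0.75, permutation adjusted p = 0.000805 and 0.00107; r = 0.56 without KO_UDCA replicate 1 and KO_chow replicate 5).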

How the data were processed

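Total liver RNA of 22 mice was hybridised to Affymetrix MoGene 2.0 ST arrays, 1 per mouse. The authors deposited intensity values on a linear scale, which per the labels come from RMA with a PLM step and are not logged. The submitters' processing notes name RMA with no version. The sources used here do not name a build. Background correction and between-array normalization inside RMA can compress fold changes of dim genes. Of 24973 rows, 24015 had 1 gene symbol in the platform annotation and 958 had none, and of symbols on several rows (4) the brightest was kept, leaving 24011 genes, with no filter. The log2 of each intensity was taken with no pseudocount. The 22 arrays entered 1 linear model with 4 group means, in limma 3.58.1 (R 4.3.3), with 2-sided p-values adjusted by Benjamini-Hochberg over all genes of a comparison. The groups are biological replicates, and the number of arrays limits the precision. Correlations of within-group deviations used permutation tests written with numpy 2.4.6, with ranks from scipy 1.17.1. The fit and the correlations were tested on simulated data. Replicates are numbered in the order of their records and pair nothing.

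The members and gene lists were chosen with earlier results of these data known. Genes outside the 10 were named by rule: up to 3 genes per endothelial list with the smallest p among those past the threshold (2 in the interaction), the defining genes of other cell types, and the 6 genes most like the members' mean. Plvap, Wnt2, Acvrl1, Vegfd, Vcam1 and the genes nearest to Lyve1 were chosen after their values were seen. Of the list genes, 11 entries matched no row. The alternatives were another scale, other scalings, a filter on dim genes, fits to the compared groups alone, array weights, another variance prior, a term for the run of sample numbers, and arrays left out.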

Additional observations from a re-analysis of the deposited data

Results flagged for a closer look

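Among the 40 combinations of a marker and a group, 8 held a mouse that stood apart by Dixon's test. Its distance to its nearest neighbour, as a share of the group's range, exceeded Dixon's limit at the 95% level. Chance gives about 1 in 20 such cases, and genes measured on 1 array are not independent. In WT_UDCA replicate 4 this was so for 5 markers, all low. Stab2 was at 7.92 with the next mouse at 8.19, Clec4g at 7.94 with the next at 8.58, Fcgr2b at 8.30 with the next at 8.64, Kdr at 7.99 with the next at 8.50, and Oit3 at 7.23 with the next at 7.82. Stab1 was high in KO_UDCA replicate 1 (7.52, the next at 7.17). Vwf was high in WT_chow replicate 5 (5.92, the next at 5.68) and in KO_chow replicate 3 (5.94, the next at 5.72).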

How the results depend on the processing

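The 60 changes of the 10 markers in the 6 comparisons were recomputed under the alternatives, which gave 1270 values. Of these, 1238 kept their direction or, without a call, their side of the threshold, 25 lost a call, 7 gained one and 0 reversed a call. In KO_chow against WT_chow, 2 markers passed as reported. The count was 3 among genes above the median level, where Kdr passed too. It was 1 with arrays centred on their medians, with only the compared groups in the fit, with array weights and with the run of sample numbers as a term. It was 0 without KO_chow replicates 2 and 5, and 0 to 3 on leaving out 1 array at a time. In KO_UDCA against KO_chow, 2 passed, 1 with only the compared groups, 0 without KO_chow replicates 2 and 5, and 1 to 2 on leaving out 1 array. In the interaction, 0 passed, 1 among genes above the median level, where fewer genes were tested, and 0 to 2 on leaving out 1 array. The other 3 comparisons stayed at 0. With only the compared groups in the fit, the adjusted p of Lyve1 in the first comparison was 0.0555 and that of Kdr in the second 0.05778. Where no reason is given, the cause was not tested.

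Over all genes, 3295 passed in KO_chow against WT_chow, 2008 with only the compared groups and 1089 without KO_chow replicates 2 and 5. In KO_UDCA against KO_chow it was 2701, 1454 and 673, with 1652 without KO_chow replicate 2 and 1632 without replicate 5. The interaction gave 642, and 207 to 1219 over the alternatives. For the lists outside the markers the alternatives were chosen after seeing the data; called genes in the first comparison and the second numbered 7 to 9 and 5 to 9 for the vascular list, 0 to 4 and 0 to 4 for the other sinusoidal and for the pan-endothelial genes, 4 to 8 and 3 to 7 for growth factors and angiocrine ligands, and 1 to 2 and 0 to 1 for lymphatic genes. Centring moved the median gene by at most 0.03 in size. No paired analysis was possible because replicate numbers follow the order of the records and pair no mice.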
